A study of Mus musculus with 10 samples.

Results

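The genes described here are 9 that carry the adrenergic signal into the heart muscle cell and set its cAMP: the receptors *Adrb1*, *Adrb3*, *Adra1a* and *Adra1b*, the adenylyl cyclases *Adcy5* and *Adcy6*, the receptor kinase *Grk5*, and the phosphodiesterases *Pde3a* and *Pde4d*. They were chosen by gene name, not by their values, and all 9 were found among the 54532 genes of the table. Messenger RNA was sequenced from 10 hearts of *Rit1* M90I/+ mice, which carry a germline allele of the RAS-like GTPase *Rit1* of the kind found in Noonan syndrome. The groups were 5 vehicle control hearts and 5 MEKi hearts, the latter from mice given the MEK inhibitor trametinib, suspended in carboxymethylcellulose and Tween 80, at 1 mg/kg once daily. Dosing of both groups began at 4 weeks of age and lasted 20 weeks, and the last dose was given shortly before the mice were killed. The allele came from conditional *Rit1* M90I males bred to females with a CMV-Cre deleter, so all 10 mice carried it in the germline and no *Rit1* wild-type heart was included. The question was how the transcripts of this pathway differed between MEKi and vehicle control hearts on the same genotype.

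Norepinephrine and epinephrine reach the heart muscle cell through beta receptors, which act through the Gs protein and adenylyl cyclase to raise cAMP, and through alpha-1 receptors, which act through Gq and phospholipase C. cAMP activates protein kinase A, which phosphorylates calcium channels, phospholamban and troponin I, so that the heart beats faster, harder and relaxes sooner. The signal is ended by receptor kinases such as *Grk5*, which phosphorylate occupied receptors, and by phosphodiesterases, which break cAMP down. In failing and hypertrophied hearts, loss of beta-1 receptors and a rise in receptor kinases are well known.

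In the hearts as a whole, 10 of 12602 genes tested passed an adjusted p of 0.05 (limma, Benjamini-Hochberg adjustment), 3 higher and 7 lower in MEKi hearts, which is 0.0794% of the genes tested. Without X, Y and mitochondrial genes 0 passed, with 924 at an unadjusted p under 0.05. Sequencing depth ran from 13647167 to 18474002 fragments assigned to genes, with 24.0 to 35.01% of fragments from mitochondrial genes. The median depth was 14591135 fragments in vehicle control and 16256252 in MEKi hearts. The median mitochondrial share was 30.3% in vehicle control and 26.8% in MEKi hearts. *Xist*, transcribed from the inactive X chromosome, was at 5.16 to 6.85 FPKM in the 5 MEKi hearts and at no more than 0.00662 FPKM in the 5 vehicle control hearts, whereas the Y-linked *Ddx3y* was at 10.3 to 12.2 FPKM in vehicle control hearts and at 0 in all MEKi hearts. The Y-linked *Eif2s3y* (8.14 to 10.8 FPKM) and *Uty* (1.20 to 2.60 FPKM) of the vehicle control hearts were also at 0 in all MEKi hearts. This is the pattern of female MEKi hearts and male vehicle control hearts, although the labels give no sex. The treatment and sex as read from these transcripts therefore cannot be told apart in any comparison below. Of the labelled tissue's cardiomyocyte markers, 6 of 6 were present in every heart and summed to 9236 to 12941 FPKM. Atrial markers were uneven, at 2159 and 810.1 FPKM in vehicle hearts 4 and 5 and 1104 FPKM in MEKi heart 2, against 127.2 to 457.7 FPKM in the other hearts. Red cell markers stood at 23639 and 25874 FPKM in vehicle hearts 4 and 5 and at 2899 to 7386 FPKM elsewhere.

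None of the 9 genes passed the adjusted threshold. Of the 8 that averaged 0.5 FPKM or more and were tested, 0 were called (against 0.0794% of all genes tested), 6 had a log2 difference above 0 and 2 had one just below it, with a median of 0.18 beside 0.011 over all genes tested. All differences of the 9 genes are on the log2(FPKM + 0.1) scale, MEKi minus vehicle control. On the TPM scale, which moved the median of all genes to 0.088, all 8 lay above 0, as they did with quantile normalization and voom. At an unadjusted p under 0.05, 2 of the 8 passed, *Adra1b* and *Pde3a*, where 7.62% of all genes tested did. Voom on the fragments behind the values also called 0 of the 8. For none of the 9 did the MEKi and vehicle control hearts fail to overlap, where 1.64% of all genes tested showed such a separation. The count of 2 was 0 without vehicle heart 1, vehicle heart 5, MEKi heart 3 or MEKi heart 5, was 1 without vehicle heart 2 or MEKi heart 1, and was 3 without vehicle heart 3. It was also 0 without the 3 hearts highest in atrial genes and 1 with array weights (*Adra1b* no longer passed) or after rescaling outside mitochondrial genes (*Pde3a* no longer passed).

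**Figure D1:**
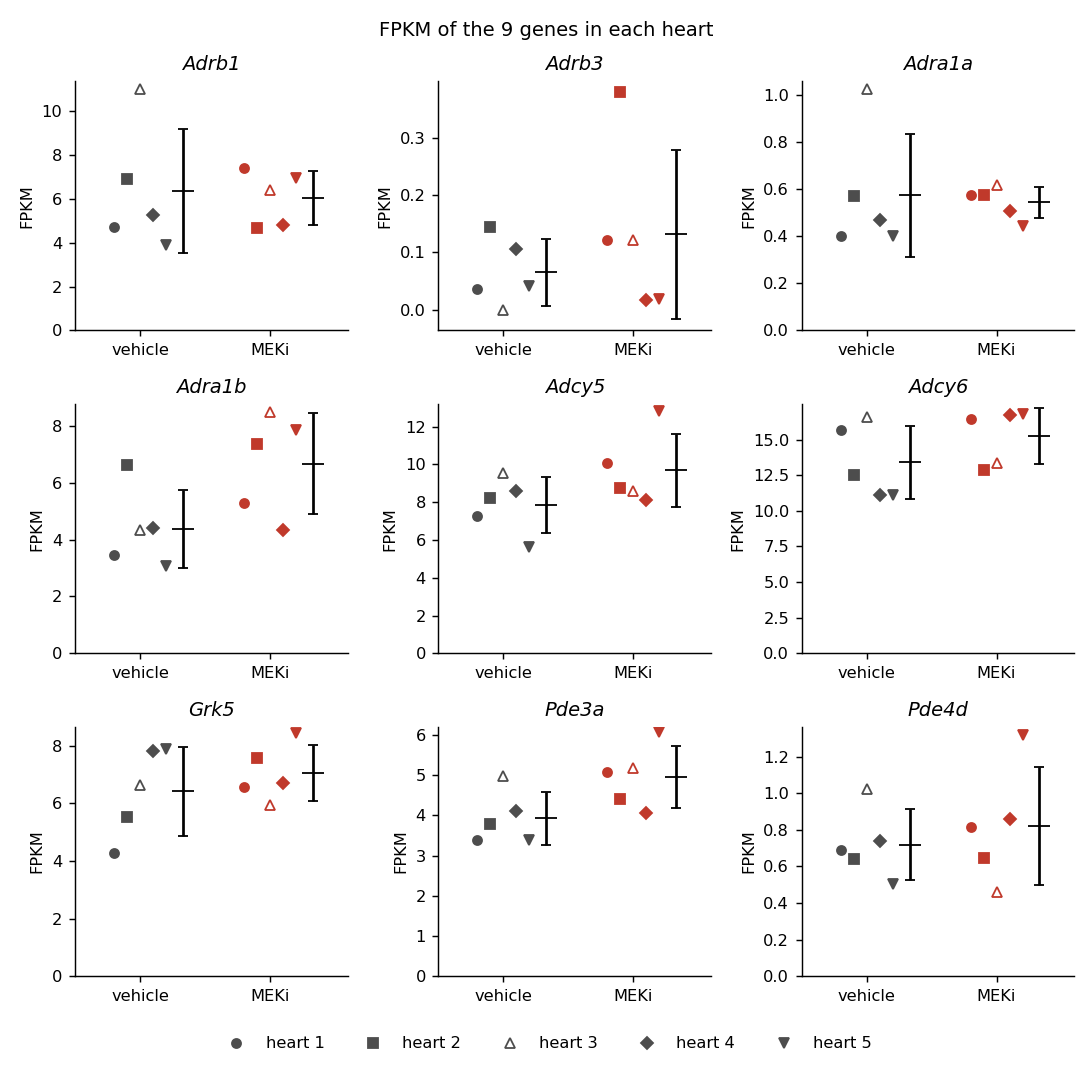
Level of each of the 9 genes in FPKM, one panel per gene, with each heart as a point (grey for vehicle control, red for MEKi, with the marker shape for the replicate number) and the mean ± SD of 5 hearts as a black line and bar. The groups overlap in every panel. Vehicle heart 3 stands high for *Adrb1* and *Adra1a*, and 3 MEKi hearts lie above all vehicle control hearts for *Adra1b* and for *Pde3a*.

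To show the DNA from which the receptors and the cyclase discussed below are transcribed, the 250 bases before the RefSeq start (GRCm38.p6, 5′ to 3′ on the gene's own strand) are printed for *Adrb1*, for the pair of *Adra1b* starts and for *Adcy5*. Capitals mark TGACG, the core of the cAMP response element through which CREB acts, and all other sequence is in lower case.
*Adrb1*, chr19:56721867-56722116, plus strand: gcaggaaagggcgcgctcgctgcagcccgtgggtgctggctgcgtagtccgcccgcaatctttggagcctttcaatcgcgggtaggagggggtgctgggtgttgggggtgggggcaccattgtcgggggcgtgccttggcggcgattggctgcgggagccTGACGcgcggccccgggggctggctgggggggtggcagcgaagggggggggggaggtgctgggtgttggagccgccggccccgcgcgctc
*Adra1b*, start at the 5′ end of the gene, chr11:43901238-43901487, minus strand: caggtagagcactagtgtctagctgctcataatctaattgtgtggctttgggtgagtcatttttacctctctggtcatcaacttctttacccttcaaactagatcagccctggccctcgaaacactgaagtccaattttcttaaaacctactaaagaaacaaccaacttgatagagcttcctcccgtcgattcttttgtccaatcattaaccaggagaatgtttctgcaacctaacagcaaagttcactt
*Adra1b*, start inside the gene, chr11:43836490-43836739, minus strand: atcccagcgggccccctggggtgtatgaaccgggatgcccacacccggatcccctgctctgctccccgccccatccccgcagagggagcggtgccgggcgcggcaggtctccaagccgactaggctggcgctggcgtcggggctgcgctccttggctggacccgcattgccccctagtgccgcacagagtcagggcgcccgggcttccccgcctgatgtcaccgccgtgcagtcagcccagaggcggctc
*Adcy5*, chr16:35154614-35154863, plus strand: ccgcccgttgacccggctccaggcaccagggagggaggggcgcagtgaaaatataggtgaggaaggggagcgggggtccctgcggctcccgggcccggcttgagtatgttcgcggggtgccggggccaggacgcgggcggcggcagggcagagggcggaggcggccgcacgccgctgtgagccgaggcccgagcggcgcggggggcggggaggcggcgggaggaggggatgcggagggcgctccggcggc

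In these windows the letters TGACG, searched on both strands, occurred once, in *Adrb1*, 90 bases before the start. TGACG is held by 17.8% of the 32851 RefSeq windows of the same length. The full cAMP response element TGACGTCA (1.55% of all windows, and always counted under TGACG too), the TATA box TATAAA (12.4%) and the E-box CACGTG (6.02%) were in none of the 6 windows of the 5 genes that matched, which also include *Grk5* and *Pde4d*. The GC box GGGCGG, held by 32.7% of all windows, was found at 4 places in *Adcy5* (48, 98, 116 and 250 bases before the start), once in *Adrb1* (202 bases) and once in the inner window of *Adra1b* (185 bases). The windows of the pair of *Adra1b* starts differed in composition, with 41.6% G and C for the outer and 72.8% for the inner, beside 74% for *Adrb1*, 78% for *Adcy5* and a median of 52.4% over all windows. These are matches of letters only, and the RNA values give each gene as a whole, not each start.

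*Adrb1* (ENSMUSG00000035283, chr19:56722372-56724862, plus strand, GRCm38), which encodes the beta-1 receptor, the main receptor for norepinephrine in the heart, was at the same level in both groups within wide limits. Its values in vehicle hearts 1 to 5 were 4.70, 6.88, 10.98, 5.28 and 3.89 FPKM, and in MEKi hearts 1 to 5 they were 7.38, 4.68, 6.40, 4.78 and 6.92 FPKM. Vehicle control hearts held both the highest and the lowest value, and all 5 MEKi hearts lay between them. The means were 6.35 ± 2.81 FPKM (SD, n = 5) in vehicle control and 6.03 ± 1.24 FPKM (SD, n = 5) in MEKi hearts, and the log2 difference was -0.00015 with a standard error of 0.25 and a 95% interval of -0.54 to 0.54 (limma, adjusted p = 0.9996). The interval, which is before adjustment, spans levels in MEKi hearts of 0.686 to 1.46 times those of vehicle control hearts, all of which these values allow. It is no limit of detection, since calls rested on the adjusted p. The vehicle mean rests on vehicle heart 3, without which the log2 difference was 0.22 (limma, adjusted p = 0.739, in a range of 0.739 to 0.9997 over all alternatives).

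*Adrb3* (ENSMUSG00000031489, chr8:27225776-27250616, minus strand), the beta-3 receptor of fat cells, which is scarce in heart muscle, was close to the limit of detection. The vehicle control hearts held 2, 7, 0, 5 and 2 fragments and the MEKi hearts 7, 22, 6, 1 and 1. In FPKM these are 0.0352, 0.144, 0, 0.106 and 0.0407 for vehicle hearts 1 to 5 and 0.121, 0.380, 0.121, 0.0166 and 0.0189 for MEKi hearts 1 to 5. MEKi heart 2 gave 22 of the 37 MEKi fragments, and the groups overlapped. The absence of fragments in vehicle heart 3 allows a level of up to 0.0625 FPKM (3 fragments), a limit that covers counting error only. The 16 vehicle fragments have an exact Poisson 95% interval of 9.15 to 26.0 and the 37 MEKi fragments one of 26.1 to 51.0, again for counting error alone. *Adrb3* was below the filter and entered no fit over all genes. The means of 0.0652 ± 0.0584 and 0.131 ± 0.148 FPKM (SD, n = 5 each) gave an exact permutation p of 0.508. Adipocyte markers summed to 98.8 to 199.6 FPKM in vehicle control and 93.1 to 159.6 FPKM in MEKi hearts. MEKi heart 2 had the highest sum of the MEKi hearts. Vehicle hearts 1, 4 and 5 were higher still (194.4, 199.6 and 167.0 FPKM), with 2, 5 and 2 *Adrb3* fragments. Over all hearts the log2 adipocyte sum had a Pearson r of 0.36 with *Adrb3* (Spearman rho 0.22, permutation p adjusted 0.604 and 0.775). Without vehicle heart 3 and MEKi heart 5 this r was -0.22. The part of these markers in the *Adrb3* value was not tested.

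*Adra1a* (ENSMUSG00000045875, chr14:66635251-66771168, plus strand), the alpha-1A receptor, whose signal supports muscle cell survival and contraction, was low and alike in mean. Vehicle hearts 1 to 5 were at 0.402, 0.572, 1.02, 0.469 and 0.402 FPKM, and MEKi hearts 1 to 5 at 0.575, 0.574, 0.616, 0.506 and 0.445 FPKM. Vehicle heart 3 was again the highest, and the other 4 vehicle control hearts all lay below 3 of the MEKi hearts. The means were 0.574 ± 0.261 and 0.543 ± 0.0678 FPKM (SD, n = 5 each), with a log2 difference of -0.0014 (standard error 0.26, 95% interval -0.56 to 0.56, limma adjusted p = 0.9987). Without vehicle heart 3 it was 0.20 (limma, adjusted p = 0.804, in a range of 0.804 to 0.9989 over all alternatives).

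*Adra1b* (ENSMUSG00000050541, chr11:43774606-43901210, minus strand), the alpha-1B receptor, linked to growth responses of the heart muscle cell, showed the largest difference of the 8 tested genes and did not pass the adjusted threshold. Vehicle hearts 1 to 5 were at 3.44, 6.62, 4.35, 4.40 and 3.09 FPKM. MEKi hearts 1 to 5 were at 5.30, 7.37, 8.50, 4.33 and 7.85 FPKM. MEKi hearts 2, 3 and 5 lay above every vehicle control heart, whereas MEKi heart 4 lay below 3 of them. The means were 4.38 ± 1.38 and 6.67 ± 1.77 FPKM (SD, n = 5 each), a log2 difference of 0.60 with a standard error of 0.23 and a 95% interval of 0.11 to 1.10. The unadjusted p was 0.0212 and the adjusted p 0.563 (limma), and the exact permutation test over 252 assignments gave p = 0.0556. Over all alternatives the log2 difference ran from 0.40 to 0.76 and the adjusted p from 0.458 to 0.905.

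The 4 receptors summed to 7.42 to 16.4 FPKM in vehicle control and 9.64 to 15.6 FPKM in MEKi hearts. Among them, *Adrb1* made up 50.1 ± 8.53% and *Adra1b* 44.5 ± 8.66% of the summed FPKM (SD over 10 hearts), with *Adra1a* at 4.58 ± 0.916% and *Adrb3* at 0.790 ± 0.837%. Within the 4, the *Adrb1* share was 54.8, 48.4, 67.2, 51.5 and 52.4% in vehicle hearts 1 to 5 and 55.2, 35.97, 40.9, 49.6 and 45.4% in MEKi hearts 1 to 5. It was thus above 50% in 4 of 5 vehicle control hearts and in 1 of 5 MEKi hearts, and the groups overlapped. The 50% line depends on the length used for *Adrb1* (2491 bases), which is shorter than its GENCODE M21 exons (3382 bases). With the same fragments, the longer length would lower its share in every heart. The means were 54.8 ± 7.26% and 45.4 ± 7.46% (SD, n = 5 each), a difference of -9.41 percentage points (two-sided exact permutation p = 0.0873, adjusted over 4 ratios 0.175), which ran from -11.9 points without MEKi heart 1 (exact p = 0.0238) to -7.05 without MEKi heart 2 (exact p = 0.190) and -6.33 without vehicle heart 3 (exact p = 0.167). The ratio of *Adra1b* to *Adra1a* was 8.29 ± 2.68 in vehicle control and 12.4 ± 3.69 in MEKi hearts (SD, n = 5 each). On the log2 scale the ratio differed by 0.60 (exact permutation p = 0.0794, adjusted 0.175), by 0.72 without MEKi heart 4 (exact p = 0.0476), by 0.46 without MEKi heart 5 (exact p = 0.175) and by 0.38 without vehicle heart 3 (exact p = 0.175). These ratios need no scaling between hearts, but their levels depend on the length used for each gene (3382 bases for *Adra1b*, 8728 for *Adra1a*).

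**Figure D2:**
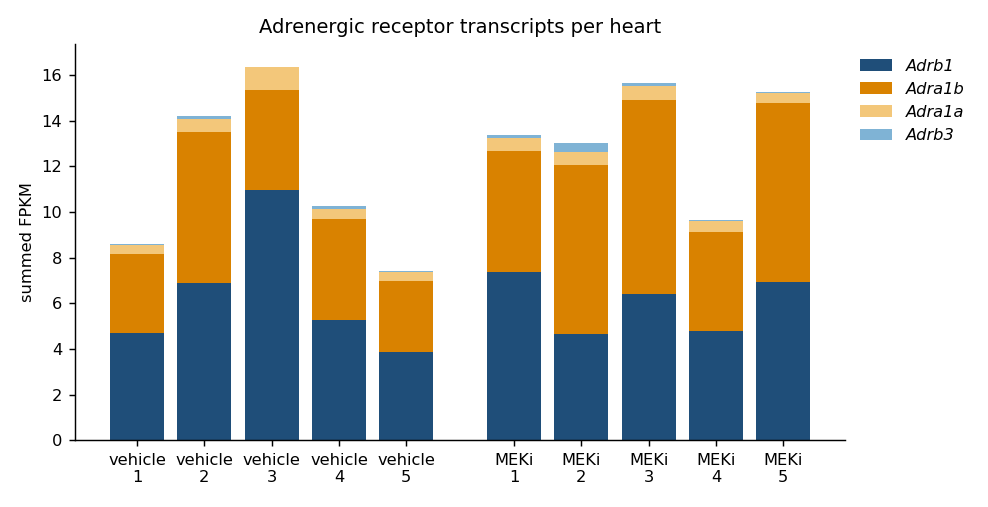
Summed FPKM of the 4 receptors (y axis) in each of the 10 hearts, with 1 stacked bar per heart and 1 color per gene. *Adrb1* and *Adra1b* fill most of every bar, and the bars run from 7.42 FPKM in vehicle heart 5 to 16.4 FPKM in vehicle heart 3.

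*Adcy5* and *Adcy6*, the main adenylyl cyclases of the heart muscle cell, which make cAMP on receptor activation and are inhibited by calcium, had the highest levels of the 9 genes. *Adcy5* (ENSMUSG00000022840, chr16:35154877-35305738, plus strand) was at 7.26, 8.22, 9.54, 8.62 and 5.65 FPKM in vehicle hearts 1 to 5 and at 10.1, 8.78, 8.61, 8.09 and 12.8 FPKM in MEKi hearts 1 to 5. MEKi hearts 1 and 5 lay above every vehicle control heart and vehicle heart 5 was the lowest of the 10. The means were 7.86 ± 1.48 and 9.68 ± 1.92 FPKM (SD, n = 5 each), with a log2 difference of 0.30 (standard error 0.16, 95% interval -0.048 to 0.65, limma adjusted p = 0.696). The log2 difference was 0.19 without vehicle heart 5, 0.19 without MEKi heart 5 and 0.37 without vehicle heart 3.

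*Adcy6* (ENSMUSG00000022994, chr15:98589973-98610076, minus strand) was at 15.7, 12.5, 16.6, 11.1 and 11.1 FPKM in vehicle hearts 1 to 5 and at 16.5, 12.9, 13.3, 16.7 and 16.8 FPKM in MEKi hearts 1 to 5. All 5 MEKi hearts were above the vehicle median, and 3 vehicle control hearts were below the lowest MEKi heart. The means were 13.4 ± 2.57 and 15.2 ± 1.95 FPKM (SD, n = 5 each), with a log2 difference of 0.19 (standard error 0.14, 95% interval -0.11 to 0.50, limma adjusted p = 0.777). Without the 3 hearts highest in atrial genes the log2 difference was 0.087. *Adcy6* exceeded *Adcy5* in 10 of 10 hearts. The ratio of *Adcy6* to *Adcy5* was 1.74 ± 0.345 in vehicle control and 1.60 ± 0.285 in MEKi hearts (SD, n = 5 each), with a log2 difference of -0.11 (exact permutation p = 0.540, adjusted 0.540).

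*Grk5* (ENSMUSG00000003228, chr19:60889749-61092553, plus strand), a receptor kinase that also enters the nucleus of heart muscle cells and promotes growth there, was at 4.28, 5.52, 6.62, 7.81 and 7.88 FPKM in vehicle hearts 1 to 5. In MEKi hearts 1 to 5 it was at 6.56, 7.57, 5.96, 6.71 and 8.45 FPKM. The MEKi hearts sat within or just above the vehicle range. The means were 6.42 ± 1.54 and 7.05 ± 0.969 FPKM (SD, n = 5 each), with a log2 difference of 0.16 (standard error 0.17, 95% interval -0.21 to 0.52, limma adjusted p = 0.865). The log2 difference was 0.34 without the 3 hearts highest in atrial genes and 0.023 without vehicle heart 1, the lowest of the 10.

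*Pde3a* (ENSMUSG00000041741, chr6:141249269-141507448, plus strand), the cGMP-inhibited phosphodiesterase that is the target of milrinone in heart failure, was at 3.39, 3.79, 4.99, 4.11 and 3.39 FPKM in vehicle hearts 1 to 5. In MEKi hearts 1 to 5 it was at 5.08, 4.40, 5.17, 4.07 and 6.06 FPKM. All 5 MEKi hearts lay above the vehicle median and 3 lay above every vehicle control heart. The means were 3.93 ± 0.660 and 4.95 ± 0.771 FPKM (SD, n = 5 each), a log2 difference of 0.33 with a standard error of 0.14 and a 95% interval of 0.027 to 0.63. The unadjusted p was 0.0349 and the adjusted p 0.609 (limma). The exact permutation test gave p = 0.0476 on log2 values and p = 0.0556 on ranks, so the result passed or missed the threshold with the statistic used. An antisense gene, *Gm28523*, shares 741 exon bases with *Pde3a* and had at most 27 fragments in a heart, against 629 or more for *Pde3a*.

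*Pde4d* (ENSMUSG00000021699, chr13:108449948-109953461, plus strand), which breaks down cAMP near the beta receptors and the ryanodine receptor, was low. It was at 0.688, 0.641, 1.03, 0.742 and 0.504 FPKM in vehicle hearts 1 to 5 and at 0.816, 0.646, 0.459, 0.862 and 1.32 FPKM in MEKi hearts 1 to 5. MEKi hearts held both the lowest and the highest value. The means were 0.720 ± 0.192 and 0.821 ± 0.321 FPKM (SD, n = 5 each), with a log2 difference of 0.13 (standard error 0.26, 95% interval -0.44 to 0.70, limma adjusted p = 0.940). Without MEKi heart 5 the log2 difference was -0.045. *Pde4d* has 20 annotated transcripts, and the table gives them as a single value. The ratio of *Pde3a* to *Pde4d* was 5.60 ± 0.772 in vehicle control and 6.72 ± 2.71 in MEKi hearts (SD, n = 5 each; exact permutation p = 0.532, adjusted 0.540).

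**Figure D3:**
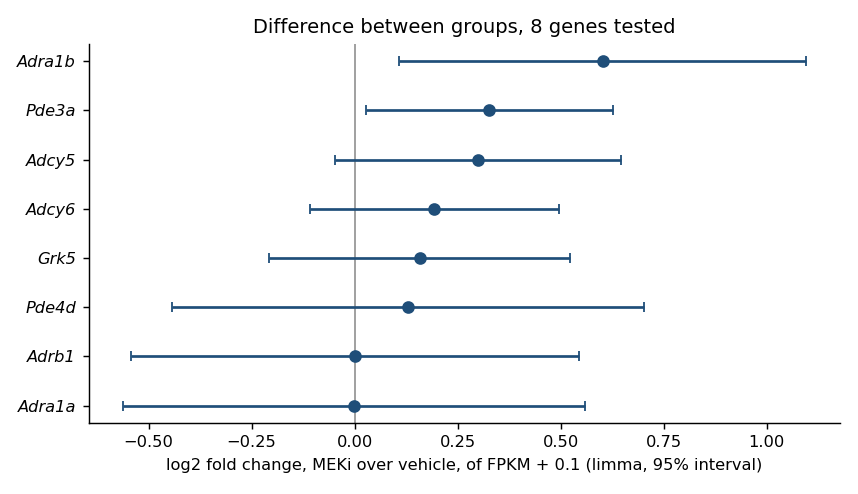
Difference between MEKi and vehicle control hearts (points) on the log2(FPKM + 0.1) scale, for the 8 tested genes, with its 95% interval (limma). The intervals of *Adra1b* (0.11 to 1.10) and *Pde3a* (0.027 to 0.63) exclude 0 before adjustment, and those of the other tested genes include it.

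Levels are per length given for each gene. Apart from *Adrb1* and *Grk5*, this is the length of all its GENCODE M21 exons together, not of a single transcript. A gene with many transcripts, such as *Pde4d* (20 transcripts, 12006 bases), can therefore read lower. The order across genes holds for these lengths only. Over 10 hearts the mean FPKM fell in the order *Adcy6* (14.3 ± 2.35), *Adcy5* (8.77 ± 1.88), *Grk5* (6.74 ± 1.26), *Adrb1* (6.19 ± 2.06), *Adra1b* (5.52 ± 1.92), *Pde3a* (4.44 ± 0.865), *Pde4d* (0.770 ± 0.255), *Adra1a* (0.558 ± 0.180) and *Adrb3* (0.0983 ± 0.112), as mean ± SD. With these lengths, a clear gap lay between *Pde3a* and *Pde4d* (5.77-fold) and another between *Adra1a* and *Adrb3* (5.68-fold), since the ranges of these neighbors did not overlap. *Adcy6* was above *Adcy5* in 10 of 10 hearts and *Adcy5* above *Grk5* in 9 of 10, although their ranges overlapped. *Grk5* was above *Adrb1* in 5 of 10 hearts and *Adrb1* above *Adra1b* in 7 of 10, so the order of these 3 does not hold beyond their spread. For *Adrb1* and *Grk5* the length used by the table (2491 and 3165 bases) is shorter than the exons of GENCODE M21 (3382 and 7055 bases), which can shift their place in the order.

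MEKi heart 5 had the highest value for 5 of the 9 genes, and was among the lowest 3 hearts for 2. Vehicle heart 5 had the lowest value for 5 of the 9, although for *Grk5* it was the highest of its group. Vehicle heart 5 also had the highest macrophage marker sum (710.5 FPKM) and the highest red cell marker sum (25874 FPKM), and MEKi heart 5 the lowest cardiomyocyte (9236 FPKM) and macrophage (332.3 FPKM) marker sums. The cardiomyocyte markers did not move as one in MEKi heart 5. *Tnni3* was at 2203 FPKM there, the lowest of the 10 hearts. *Ryr2* was at 27.3 FPKM, the highest of the MEKi hearts, where vehicle control hearts ran from 15.0 to 27.6 FPKM. Over the list of 6 macrophage markers, 6 of 6 had lower means in MEKi hearts, 3 at an unadjusted p under 0.05 and 0 at the adjusted threshold, with sums of 418.6 to 710.5 FPKM in vehicle control and 332.3 to 415.3 FPKM in MEKi hearts. On the TPM scale 5 of 6 were lower. None of the 6 was at 0 in every heart. Of the other cell types, endothelial markers were lower in 5 of 6 genes (106.8 to 177.6 FPKM summed), smooth muscle and pericyte markers in 4 of 5 tested (141.3 to 205.5 FPKM) and fibroblast markers in 4 of 6, or 3 of 6 on the TPM scale (134.2 to 203.7 FPKM), with 0 called. Atrial and red cell markers were each lower in 5 of 5 tested (median log2 difference -2.23 and -0.90). Adipocyte markers were higher in 3 of 4 tested (median 0.42), with 0 called. The sum of all 6 did not run higher, at 98.8 to 199.6 FPKM in vehicle control and 93.1 to 159.6 FPKM in MEKi hearts. Cardiomyocyte markers were higher in 4 of 6 (median 0.078), again with 0 called. Over the 10 hearts, the log2 macrophage sum had a Pearson r of -0.81 with *Adcy5* (Spearman rho -0.66, permutation p adjusted 0.136 for r and 0.356 for rho), which was -0.35 without vehicle heart 5 and MEKi heart 5. With *Adcy6* its r was -0.73 (rho -0.79, permutation p adjusted 0.136 and 0.288), or -0.59 without these hearts, and with *Pde3a* it was -0.69 (rho -0.72, permutation p adjusted 0.179 and 0.312), or -0.42 without them. The endothelial sum had an r of -0.78 with *Adcy6* (rho -0.81, permutation p adjusted 0.117 and 0.288), or -0.68 without the same 2 hearts. Other marker sums had relations as strong. *Adcy6* had an r of -0.86 with the red cell sum (permutation p adjusted 0.103, the lowest for any r). *Adcy5* had an r of -0.80 with the smooth muscle and pericyte sum (permutation p adjusted 0.149). With the adipocyte sum, *Pde3a* had an r of -0.80 and *Adrb1* one of -0.77 (permutation p adjusted 0.136 each). *Adrb3* had a positive r of 0.75 with the neuronal and Schwann sum (rho 0.54, permutation p adjusted 0.149 and 0.514). This r was 0.36 without MEKi hearts 2 and 4. None of 108 such relations between the 9 genes and 12 library measures passed after adjustment. The part of these markers in the difference between groups was not tested, and in whole tissue fewer cells of a type cannot be told apart from less RNA per cell.

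Of the 36 pairs among the 9 genes, 27 had a Pearson r above 0 over the 10 hearts and 9 below, with a median of 0.31 and a range of -0.49 to 0.89. The closest pair was *Adcy5* and *Pde3a*, a cyclase and a phosphodiesterase that act on cAMP in opposite directions. Their r was 0.89 (permutation p = 0.00025, adjusted over 36 pairs 0.00900) and their Spearman rho 0.85 (permutation p = 0.00286, adjusted 0.103). After removal of the group means r was 0.85, and it was 0.86 without vehicle heart 5 and MEKi heart 5, the hearts farthest from the median. The other pairs did not pass the adjusted threshold. *Adrb1* and *Adra1a* had an r of 0.81 (permutation p adjusted 0.116), which rested on vehicle hearts 3 and 5 and was 0.38 without them. *Adcy5* and *Pde4d* had an r of 0.75 (permutation p adjusted 0.181), which was 0.34 without vehicle heart 5 and MEKi heart 5. *Adcy6* and *Pde4d* had an r of 0.70 (permutation p adjusted 0.199), and it was 0.77 without vehicle hearts 4 and 5. The hearts differed in treatment, in *Xist* and the Y-linked transcripts, and in the atrial, macrophage and red cell markers given above. Each heart's values also share 1 library and 1 scaling. All of these can move 2 genes together.

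**Figure D4:**
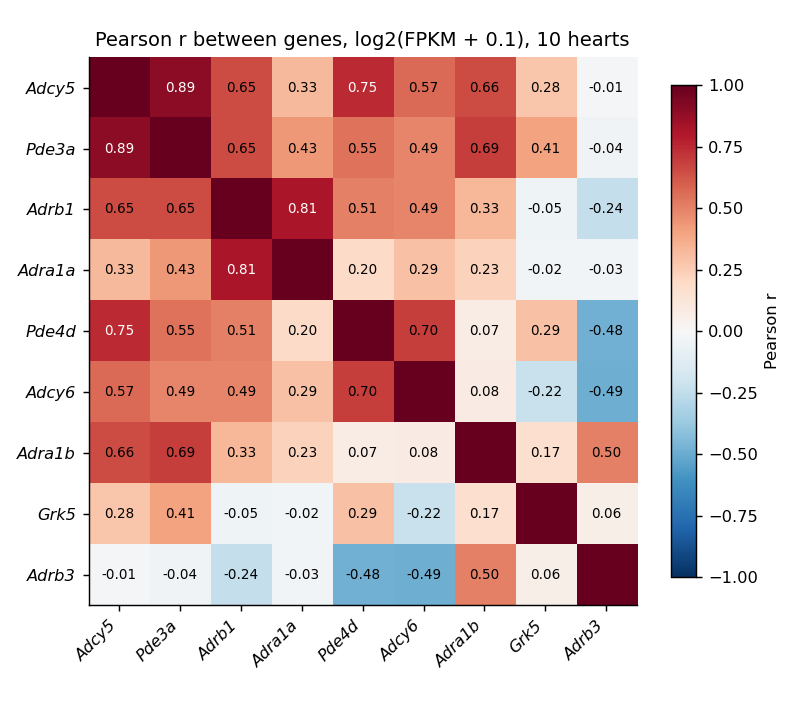
Pearson r over 10 hearts between each pair of the 9 genes in log2(FPKM + 0.1), colored from negative to positive. *Adcy5* with *Pde3a* (0.89) is the highest; *Adrb3* pairs lie near or below 0, apart from that with *Adra1b* (0.50).

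Among 10704 genes that averaged 1 FPKM or more, those whose pattern over the 10 hearts was most like that of *Adrb1* were *Ghr*, the growth hormone receptor (Pearson r 0.97, Spearman rho 0.87), *Mfhas1* (0.97 and 0.96) and *Cog5*, a Golgi transport subunit (0.94 and 0.88). They were picked as the highest of all genes, so no test applies. Each was highest in vehicle heart 3, as *Adrb1* was, and without vehicle hearts 3 and 5 the r values were 0.92, 0.91 and 0.92. *Ghr* ran from 10.8 to 13.9 FPKM, *Mfhas1* from 3.60 to 8.80 FPKM and *Cog5* from 3.16 to 5.30 FPKM.

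Beyond the 9 genes, 109 other genes of the pathway were grouped into 9 lists, and 84 of them were tested. None of the 84 passed the adjusted threshold (limma, 0.0794% of all genes tested did; voom also called 0), 49 had a log2 difference above 0 and 35 below, with a median of 0.036. On the TPM scale the lists moved up with all genes, for example from 7 to 12 of 15 above 0 for the G-protein subunits. At an unadjusted p under 0.05, 10 of the 84 passed, beside 7.62% of all genes tested. That count was 6 without MEKi heart 1 or MEKi heart 5, 18 without vehicle heart 3 (1253 over all genes tested, against 960 with it) and 5 on the TPM scale (1010 over all genes tested), so it was not steadily above or below the background. In 3 of the 84 the groups did not overlap, beside 1.64% of all genes tested.

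Other adrenergic receptors were tested for 2 of 5 genes, 1 above and 1 below 0. Of the other Gs- and Gi-coupled receptors, 5 of 12 were tested, 2 above and 3 below 0. *Adora1*, the adenosine A1 receptor that slows the sinus node, had means of 1.69 ± 0.328 and 1.31 ± 0.214 FPKM (log2 difference -0.34, limma adjusted p = 0.652). All 15 G-protein subunits were tested, 7 above and 8 below 0. *Gnas*, the stimulatory alpha subunit that couples beta receptors to the cyclases, had means of 6.08 ± 1.42 and 8.22 ± 1.499 FPKM (log2 difference 0.45, standard error 0.18, limma adjusted p = 0.606).

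Among the other cyclases, 3 of 8 were tested, 1 above and 2 below 0, none at an unadjusted p under 0.05. The other receptor kinases and arrestins were the list with the most even direction, with 0 of 5 tested genes above 0 and 5 below, at a median log2 difference of -0.26, and none called. On the TPM scale *Grk2* moved above 0, which left 4 below. *Grk6* was at 5.66, 5.83, 5.32, 5.86 and 5.12 FPKM in vehicle hearts 1 to 5 and at 4.62, 4.70, 4.37, 4.86 and 4.17 FPKM in MEKi hearts 1 to 5, so that the groups did not overlap. Its log2 difference was -0.28 (standard error 0.084, limma adjusted p = 0.445), and the exact permutation p was 0.00794, the smallest that 5 against 5 hearts can give. *Grk3* had means of 1.45 ± 0.189 and 1.01 ± 0.278 FPKM (log2 difference -0.51, limma adjusted p = 0.554). *Grk2*, the receptor kinase that desensitizes beta receptors in the failing heart, had means of 14.9 ± 1.08 and 14.5 ± 1.02 FPKM, and its log2 difference of -0.039 ran from -0.12 to 0.039 over the alternatives.

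Of the other phosphodiesterases, 11 of 16 were tested, 7 above and 4 below 0. *Pde4c* had means of 0.968 ± 0.287 and 0.576 ± 0.200 FPKM (log2 difference -0.67, limma adjusted p = 0.572). Among protein kinase A, Epac and the anchoring proteins, 22 of 23 were tested, 17 above and 5 below 0, with a median of 0.078. *Rapgef3*, the cAMP-activated exchange factor Epac, was at 4.06, 4.21, 3.79, 3.74 and 5.65 FPKM in vehicle hearts 1 to 5 and at 3.63, 3.45, 2.79, 3.47 and 3.09 FPKM in MEKi hearts 1 to 5, without overlap. Its log2 difference was -0.36 (standard error 0.13, limma adjusted p = 0.525; exact permutation p = 0.00794). *Akap10*, an anchoring protein, had means of 1.51 ± 0.236 and 1.92 ± 0.271 FPKM (limma, adjusted p = 0.619). *Prkaca*, the main catalytic subunit, had means of 79.9 ± 10.5 and 90.9 ± 4.20 FPKM (log2 difference 0.20, limma adjusted p = 0.681).

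All 13 protein kinase A substrates were tested, 9 above and 4 below 0. *Rrad*, a small GTPase that holds back the L-type calcium channel until protein kinase A phosphorylates it, was at 175.7, 113.3, 77.5, 86.3 and 69.4 FPKM in vehicle hearts 1 to 5. In MEKi hearts 1 to 5 it was at 163.7, 171.1, 208.7, 195.1 and 166.8 FPKM. Vehicle heart 1 lay inside the MEKi range, and the other 4 lay below it. The means were 104 ± 43.1 and 181 ± 19.8 FPKM (log2 difference 0.87, standard error 0.22, limma adjusted p = 0.314). Without vehicle heart 1 *Rrad* passed the threshold, with a log2 difference of 1.08 (limma, adjusted p = 0.0225, in a range of 0.0225 to 0.743 over the alternatives), the only gene of the 84 called under any alternative. *Crem*, a cAMP-responsive transcription factor, had means of 1.82 ± 0.342 and 1.39 ± 0.110 FPKM (log2 difference -0.35, limma adjusted p = 0.619).

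Of the genes for catecholamine synthesis and clearance, 8 of 11 were tested, 5 above and 3 below 0. *Ddc*, which makes dopamine from L-DOPA, was at 0.613, 0.435, 0.426, 0.596 and 0.462 FPKM in vehicle hearts 1 to 5 and at 0.641, 1.07, 1.62, 0.627 and 1.58 FPKM in MEKi hearts 1 to 5. The groups did not overlap, but the lowest MEKi heart (0.627 FPKM) and the highest vehicle control heart (0.613 FPKM) were nearly level. Its log2 difference was 0.91 (standard error 0.28, limma adjusted p = 0.461; exact permutation p = 0.00794).

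**Figure D5:**
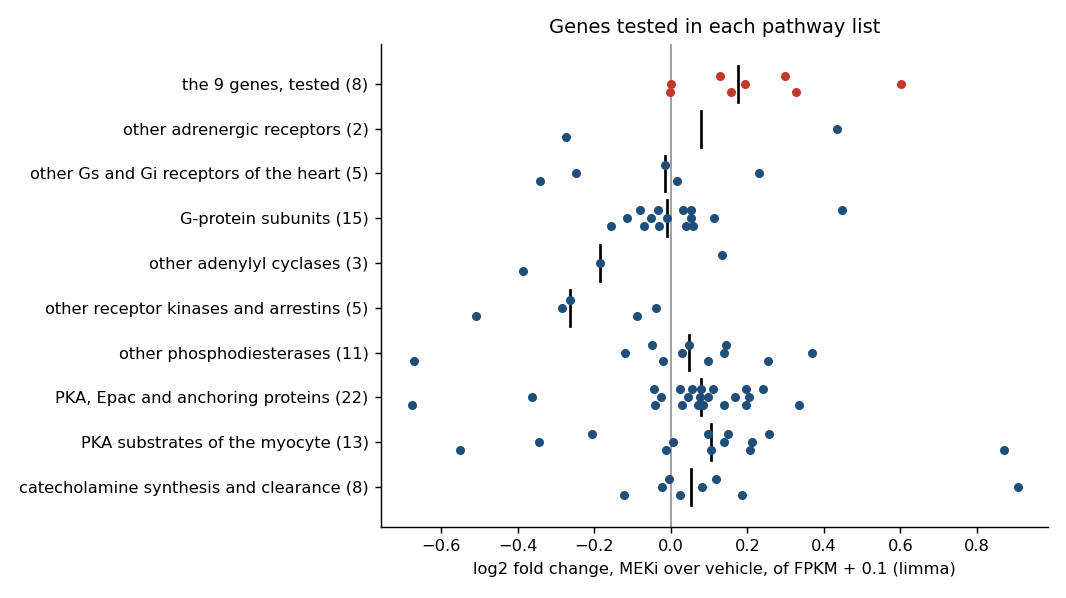
Difference between MEKi and vehicle control hearts on the log2(FPKM + 0.1) scale for each tested gene of the 9 pathway lists and of the 9 genes (points), with the median of each list as a bar. All 5 tested genes of the list of other receptor kinases and arrestins lie below 0 on this scale (4 of 5 on the TPM scale). *Grk5*, the receptor kinase plotted among the 9 genes, lies above 0 (0.16), and the other lists spread to both sides of it.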

How the data were processed

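Poly(A)-selected RNA of 10 mouse hearts was sequenced; processing notes of the submitters name fastp, STAR 2.5, HTSeq 0.6.1 and mm10. The values are FPKM per gene as deposited by the authors; gene coordinates in the table matched GENCODE M21 (GRCm38) for 98.3% of 54409 shared genes. The strand setting and annotation release are not given in the sources used here. FPKM times length were whole multiples of a constant in each heart (tolerance 0.001 fragments), which gave the fragments assigned to genes. Groups followed the labels, which call the hearts of a group biological replicates.

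For 12602 genes averaging 0.5 FPKM or more, log2(FPKM + 0.1) was fitted with limma 3.58.1 (R 4.3.3; eBayes with a trend, treatment only, two-sided, Benjamini-Hochberg over all genes tested, threshold 0.05). This scale understates changes of low genes. Single genes and ratios were also tested by two-sided exact permutation over 252 assignments (smallest p 0.00794; scipy 1.17.1), and pairs by 100000 permutations. Named were all 9 genes, up to 2 genes per pathway list with the lowest unadjusted p under 0.05, any gene of such a list with an adjusted p under 0.05, *Gnas*, *Grk2* and *Prkaca* by role, the 3 genes most like *Adrb1*, and *Xist*, *Ddx3y*, *Eif2s3y* and *Uty* as checks. 1 further gene chosen by role is not reported here. The genes and lists were chosen with earlier results of these data known. Alternatives covered pseudocount, filter, scaling, trend, weights, voom, the replicate block, each heart left out, and the 3 hearts highest in atrial genes left out. Promoter sequences are from RefSeq (GRCm38.p6), which matched 5 of the 9 genes; *Adrb3*, *Adra1a*, *Adcy6* and *Pde3a* had no entry. The fit was tested on simulated data.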

Additional observations from a re-analysis of the deposited data

Results flagged for a closer look

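*Adrb3* in MEKi heart 2 stood apart from its group, at 0.380 FPKM where the other 4 MEKi hearts lay between 0.0166 and 0.121 FPKM. *Adra1a* in vehicle heart 3 stood apart in the same way, at 1.02 FPKM where the other 4 vehicle control hearts lay between 0.402 and 0.572 FPKM. Both met Dixon's 95% criterion for a group of 5. Of 26 groups of 5 values examined, 2 met it, and about 1.3 would by chance.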

How the results depend on the processing

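No alternative called any of the 9 genes at an adjusted p of 0.05. Of 182 alternative values of their log2 differences, 164 kept the sign and 18 changed it, all with an adjusted p above 0.05. Over all genes, the count of calls was 10. It was 2 among genes averaging 5 FPKM or more, 18 with array weights, 5 without the 3 hearts highest in atrial genes (vehicle hearts 4 and 5 and MEKi heart 2), 0 (924 at an unadjusted p under 0.05) without X, Y and mitochondrial genes, and 5 to 13 when each heart was left out. With the replicate block the count was 4, with 0 of the 9 genes and 0 of the pathway lists called. At an unadjusted p under 0.05, 1 of the 9 passed (*Pde3a* no longer did). Same-numbered hearts did not deviate together (r from -0.15 to -0.021 over 5 pairs). The labels link these hearts by number only, and this check cannot exclude a link of another kind. The count over the pathway lists was 0 to 1 when each heart was left out (*Rrad*, without vehicle heart 1).

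The log2 difference of *Adrb1*, -0.00015, was 0.00076 with pseudocount 0.01, 0.078 on the TPM scale, 0.0024 with quantile normalization and 0.0025 with voom, -0.17 without the 3 hearts highest in atrial genes, and -0.15 to 0.22 with each heart left out. That of *Adra1a*, -0.0014, was 0.0081 with pseudocount 0.01, 0.075 on the TPM scale, 0.016 with quantile normalization, 0.054 with array weights and 0.020 with voom, -0.20 without the 3 hearts highest in atrial genes, and -0.090 to 0.20 with each heart left out. That of *Pde4d*, 0.13, was -0.045 to 0.29 with each heart left out. The TPM scale moved the median of all genes from 0.011 to 0.088. The exact p of *Pde3a* (log2 difference 0.33) was 0.0556 on ranks. With each heart left out, the log2 ratio of *Adcy6* to *Adcy5* differed by -0.21 to -0.024, that of *Adra1b* to *Adra1a* by 0.38 to 0.74, that of *Pde3a* to *Pde4d* by -0.013 to 0.31, and the *Adrb1* share by -11.9 to -6.33 percentage points. The causes were not tested. The planned voom with TMM was not run; voom used the library sizes behind the FPKM and was chosen after seeing the data. Depth limited *Adrb3* (at most 22 fragments) most. In the 8 tested genes, what could be detected depended on the standard errors, 0.14 to 0.26 on the log2 scale. It also depended on the adjustment over all genes tested.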
